A study of Arabidopsis thaliana with 87 samples.

Results

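The 75 Arabidopsis genes described here were selected on their RPKM ratios: their RNA was higher in nuclei after 2 h of hypoxia, differed less in poly(A)+ RNA at that time, and was higher in poly(A)+ RNA after 1 h of reoxygenation. The choice used the authors' group means in RPKM, reads per kilobase of gene and per M reads. Of the 37899 gene identifiers in the table, 12360 averaged 1 RPKM or more across the nuclear RNA columns and also across the poly(A)+ RNA columns. For these genes each ratio was taken as the log2 ratio of RPKM + 1 between 2 group means, minus its median over the 12360 genes, and is called the centred ratio below. Genes were kept with a centred nuclear ratio of hypoxia over control of at least 1.0, a poly(A)+ ratio of hypoxia over control under 0.5, and a poly(A)+ ratio of reoxygenation over hypoxia of at least 0.7. These criteria left 86 genes, and 11 whose descriptions named HSP, heat shock or chaperon were dropped, 3 of them only when upper and lower case are not told apart. HSP70T-2, an HSP70 family member, stayed among the 75 because its description spells heat-shock with a hyphen. The 3 ratios therefore define the genes and are given as a description, with no test.

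Seedlings were 7 days old, grown in long days with 16 h of light, and kept in darkness from the end of the light period, in argon for the hypoxic groups. The groups are 2HS (2 h of hypoxia) and its control 2NS, 9HS (9 h of hypoxia) and its control 9NS, 1R (2 h of hypoxia, then 1 h of reoxygenation) and 2R (2 h of each). No control in air matches 1R or 2R in time, and the labels give no hours of darkness for them. Comparisons of 1R or 2R with 2HS or 2NS therefore cannot tell reoxygenation from the later time. Nuclear RNA, from nuclei pulled down by a biotinylated tag (INTACT) and freed of ribosomal RNA, and oligo(dT)-selected poly(A)+ RNA came from whole seedlings of the line pUBQ10:NTF pACT2:BirA, in which constitutive promoters drive the tag and the biotin ligase. Ribosome-bound RNA (TRAP, translating ribosome affinity purification, also oligo(dT)-selected) came from p35S:RPL18-FLAG seedlings, whose tagged ribosomal protein is driven by a constitutive viral promoter. Chromatin immunoprecipitation of H3K9ac, H3K14ac, H3K4me3, H3K27me3 and RNA polymerase II phosphorylated at serine 2 (Ser2P) used Col-0. The histone variant H2A.Z was precipitated from pHTA11:HTA11-3XFLAG seedlings, the transcription factor HRE2 from p35S:C2A HRE2-HA seedlings, and ATAC-seq (open chromatin) used roots of pUBQ10:NTF pACT2:BirA. The 1R samples (nuclear RNA, poly(A)+ RNA and ATAC) and the 2R samples (TRAP) are of the same lines as the 2HS and 2NS samples of their assay.

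In plants short of oxygen, respiration gives way to fermentation, and much of the cell's mRNA leaves polysomes while a core set of hypoxia genes is transcribed and translated. A transcript must be spliced, polyadenylated and exported before it can reach ribosomes, so its level in nuclei, in the poly(A)+ pool and on ribosomes can differ. Chaperones and their partners, many of them induced by heat, refold proteins after stress, and on return to air seedlings also face reactive oxygen.

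RNA and Ser2P groups had 3 libraries and acetylation and H2A.Z groups had 2; nothing in the labels says that these came from separate cultures, so the spread between them may be technical. Reads per library, recovered from the digits of the deposited means, lay between 2.53 and 12.4 M for TRAP, between 8.66 and 20.96 M for poly(A)+ libraries and between 1.05 and 16.6 M for nuclear libraries. RPKM was summed over the protein-coding genes resolved in every library of an assay, which leaves out unresolved, mostly abundant genes. This sum, called the protein-coding total below, is not the whole share of such genes. It lay between 16560 and 161900 per library in nuclear RNA, 6795 and 101100 in poly(A)+ RNA, and 93690 and 112100 in TRAP RNA. It differed widely between the nuclear and between the poly(A)+ libraries. As the label of whole seedlings would have it, all 5 markers of green tissue and all 3 of root hair, 2 of endodermis and 2 of guard cells were above 0 in the 9 RNA groups of 2HS, 2NS, 1R and 2R; the groups at 9 h were not examined for them. All these samples are bulk tissue, in which fewer cells of a type and less RNA per cell cannot be told apart.

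In nuclear RNA the median over the 75 genes of the authors' means was 7.27 RPKM in 2HS and 2.07 RPKM in 2NS, while over the 12360 genes it was 3.58 RPKM in 2HS and 5.04 RPKM in 2NS. In poly(A)+ RNA the median over the 75 genes was 13.8 RPKM in 1R, against 2.78 RPKM in 2HS and 2.14 RPKM in 2NS. In 9NS, later in air, it was 7.06 RPKM, while over the 12360 genes it was 2.52 RPKM in 2NS and 6.33 RPKM in 9NS. The centred nuclear ratio of 2HS over 2NS ran from 1.01 to 4.54 with a median of 1.52. The centred poly(A)+ ratios ran from -1.35 to 0.46 for 2HS over 2NS and from 0.70 to 2.97 for 1R over 2HS. Background shares were 10.5% of the 12360 genes for the nuclear criterion, 93.5% and 4.98% for the poly(A)+ criteria, and 0.696% for all 3, and nothing is read from them. Just inside the nuclear threshold lay AT1G59970 (1.01) and KIN1 (1.03), and just outside ELF5A-3 (0.998) and AT5G61240 (0.994). For the low poly(A)+ ratio, AT5G11680 (0.46) and IP5PII (0.43) lay inside and PS2 (0.53) and AT1G69680 (0.53) outside. For reoxygenation, AT4G31441 (0.701) and AT3G24100 (0.704) lay inside and AT1G30250 (0.697) and AHL19 (0.692) outside.

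Whether the transcripts of these genes were held in nuclei and then released was not tested. The nuclear 1R libraries entered the choice only through the minimum mean of 1 RPKM, not through a ratio. They gave a median of 6.48 RPKM, against 7.27 RPKM in 2HS. The centred ratio of 1R over 2HS was below 0 in 54 of the 75 genes and above 0 in 21, with a median of -0.65. Without centring, 30 of the 75 genes had a higher nuclear mean in 1R than in 2HS, where the median log2 ratio of the 12360 genes was 0.42. Against 2NS, the nuclear 1R mean was higher on the centred scale in 69 of the 75 genes, with a median of 1.10. These ratios share their 2HS and 2NS libraries with the choice and carry no test. Choosing genes high in nuclear 2HS and low in 2NS favours 1R values below 2HS and above 2NS, so nothing is read from them. In poly(A)+ RNA the uncentred 2HS mean was above the 2NS mean in 60 of the 75 genes, but the median log2 ratio of the 12360 genes was itself 0.26. After centring, 48 of the 75 genes were above 0 and 27 below, with a median of 0.09. The log2 ratio of nuclear over poly(A)+ RPKM + 1 had a median of 0.70 in 2HS, -0.27 in 2NS and -1.33 in 1R over the 75 genes, against -0.11, 0.54 and -0.29 over the 12360 genes. Apart from nuclear 1R, which entered only the minimum mean, the means in these ratios are those whose ratios chose the genes. Their order is therefore fixed in large part by the choice and nothing is read from it. Nuclear RNA was not poly(A)-selected and lengths matched the whole gene with its introns, so the levels of the 2 RNA kinds are not on 1 scale.

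**Figure D1:**
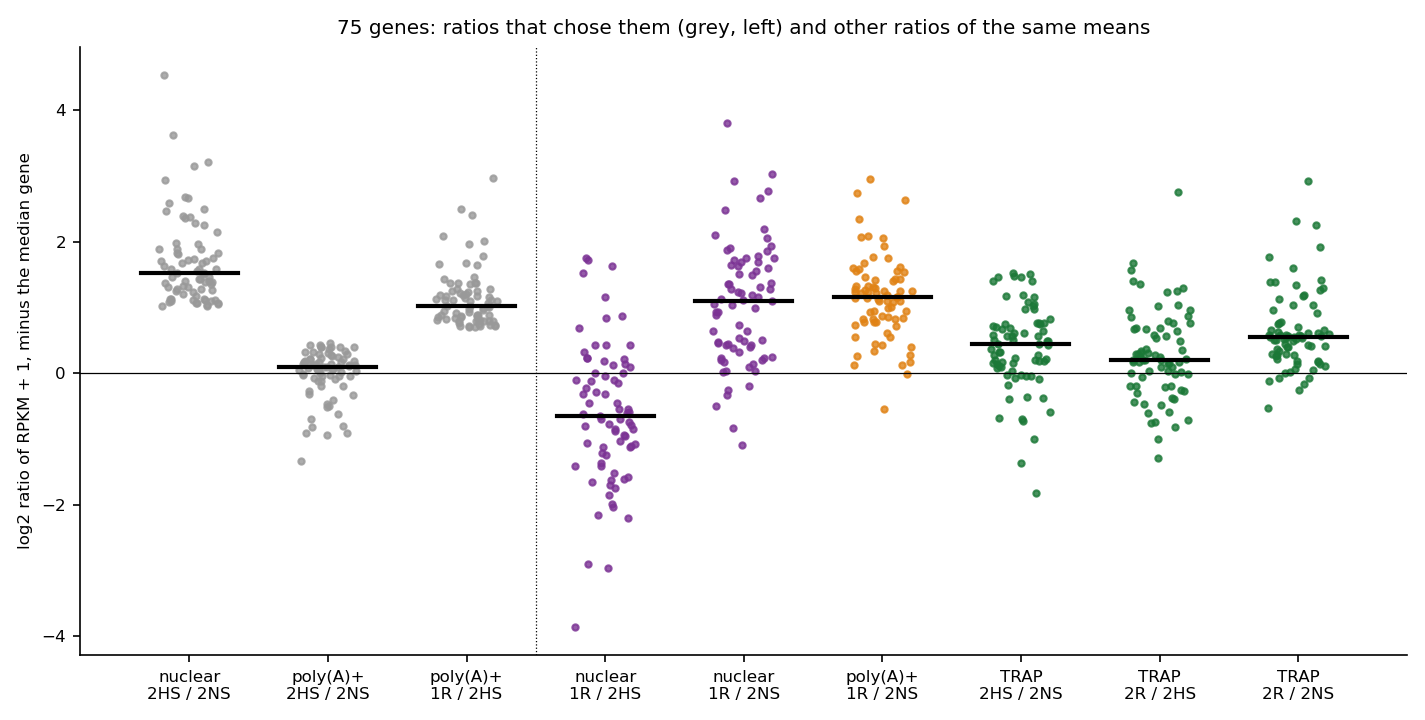
Centred log2 ratios of the authors' group means for the 75 genes, 1 point per gene, with the median as a bar. The 3 grey columns on the left chose the genes; in the columns to the right the nuclear 1R over 2HS ratio has a median of -0.65 and runs from -3.87 to 1.75, and 2R over 2NS in TRAP RNA has a median of 0.55.

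How the nuclear criterion rests on single libraries was examined because depth differed. For 74 of the 75 genes the reads of each nuclear 2HS and 2NS library could be resolved (all but BAG6), and in 14 of these, 18.9%, every 2HS library was above every 2NS library, against 1.34% of those of the 12360 genes that could be resolved. With each library rescaled to the same protein-coding total, 43 of 74 genes were so separated, against 9.12%. The 2HS library of 2.12 M reads carried a median of 65.8% of the summed RPKM of the 3 libraries over the 75 genes, and 61.6% over the 12360 genes. Without it, 50 of the 75 genes still met the criteria (BAG6 could not be evaluated), the median ratio of all genes moved to -1.03, and 48 of the 74 genes had a higher mean in 2HS than in 2NS before centring. Leaving out any other nuclear library of 2HS or 2NS kept 59 to 75 of the genes, and 36 were kept in all 6 such leave-outs. Every poly(A)+ library of 1R was above every one of 2HS in 47 of 49 resolved genes (95.9%, against 28% of the resolved genes among the 12360), AT4G31441 and AT3G02190 being the exceptions. The nuclear and poly(A)+ criteria used these same libraries, so nothing is read from these shares. Without centring, 112 genes met the criteria, of which 30 were among the 75.

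**Figure D2:**
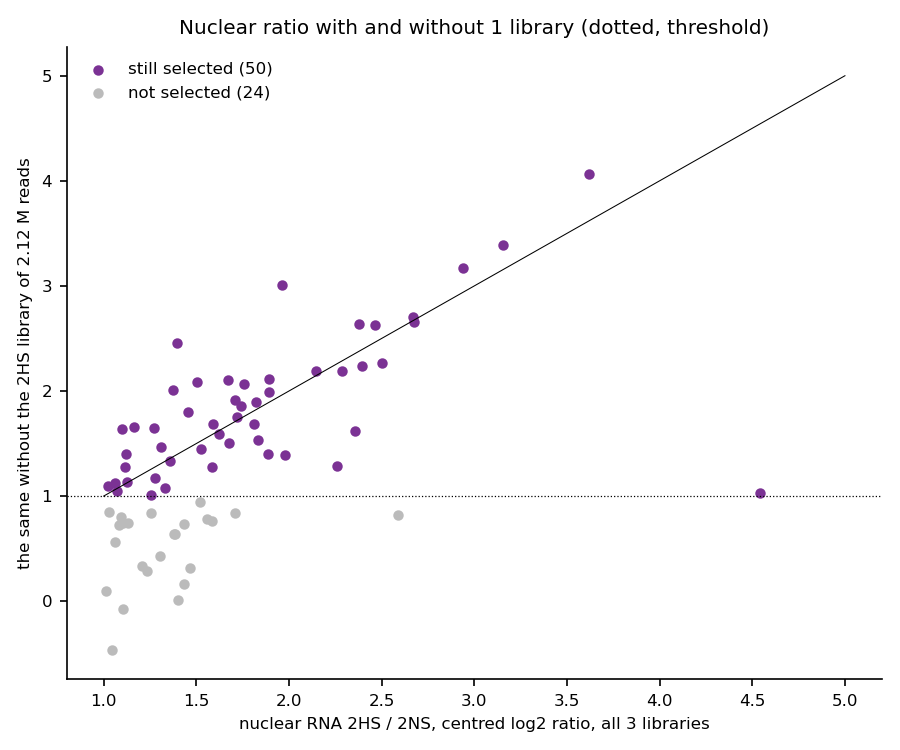
Centred nuclear log2 ratio of 2HS over 2NS for the 74 genes with resolved libraries, from all 3 libraries (x) and without the 2HS library of 2.12 M reads (y); the solid line marks equality and the dotted line the threshold. The 50 genes above the dotted line were still chosen and 24 were not.

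The largest nuclear ratio, 4.54, belonged to AT4G31441, a gene of 123 bp, whose RPKM was 49.9, 0 and 0 in the 2HS libraries, given here and below from the shallowest to the deepest, and 0 in all 3 2NS libraries. FLP1 had 15.1, 0 and 0.321 RPKM in 2HS, against 0, 0 and 1.03 RPKM in 2NS. In both genes 1 library made the group mean, and the groups overlapped. A gene at 0 in both groups receives a positive centred ratio by construction where the median gene is lower in 2HS. The 75 genes were shorter than the others, with a median span of 1601 bp against 2312 bp, and 7 of them (9.33%, against 2.04%) were under 700 bp. Of the 75, 71 were protein-coding (94.7%, against 98.1%), and the rest were the U2 small nuclear RNA gene U2.2, the non-coding RNAs AT5G07322 and AT1G06537, and the pseudogene AT5G02244. The genes lay on all chromosomes, with 16, 12, 16, 13 and 18 on chromosomes 1 to 5. Another annotated gene overlapped 20 of them (26.7%, against 29.4%), and since strandedness is not given in the sources used here, their values are uncertain.

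Several genes encode partners of chaperones. ROF2 (AT5G48570), an FK506-binding prolyl isomerase that acts with its relative ROF1 in thermotolerance, had 18.8, 11.4 and 15.0 RPKM in nuclei of 2HS, against 0.133, 1.66 and 0.382 RPKM in 2NS. In 1R it stood at 44.4, 8.93 and 18.3 RPKM in nuclei. The 2HS and 2NS libraries did not overlap, and the 1R libraries spanned those of 2HS. In poly(A)+ RNA its mean was 16.9 RPKM in 1R, where the reads per library could not be resolved, against 0.387, 0.509 and 0.579 RPKM in 2HS and 0.217, 0.332 and 0.277 RPKM in 2NS. Hop3 (AT4G12400), which links HSP70 to HSP90, had 20.5, 12.9 and 7.25 RPKM in nuclei of 2HS, against 2.16, 0.891 and 0.406 RPKM in 2NS. Its poly(A)+ mean was 16.0 RPKM in 1R, against 1.00, 1.09 and 0.781 RPKM in 2HS. BAG6 (AT2G46240), a co-chaperone of HSP70 that binds calmodulin, averaged 31.5 RPKM in nuclei of 2HS, against 2.10, 7.37 and 1.41 RPKM in 2NS. Its poly(A)+ RNA stood at 7.44, 7.04 and 2.57 RPKM in 1R, against 0.722, 0.509 and 0.608 RPKM in 2HS. For Hop3 and BAG6 the resolved groups stood apart as recovered, but the poly(A)+ 1R and 2HS libraries of BAG6 overlapped when rescaled.

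EGY3, a chloroplast homologue of the EGY metalloproteases, had 15.1, 7.19 and 7.28 RPKM in nuclei of 2HS, against 0.593, 1.16 and 0.849 RPKM in 2NS, and 7.67, 7.51 and 3.84 RPKM in poly(A)+ RNA of 1R, against 0.359, 0.629 and 0.601 RPKM in 2HS. All these groups were separated. HSA32, needed for long-lasting thermotolerance, reached 20.4, 24.9 and 12.8 RPKM in poly(A)+ RNA of 1R, against 1.43, 3.39 and 2.10 RPKM in 2HS, but its nuclear libraries overlapped, as recovered and rescaled, with 7.44, 1.15 and 4.64 RPKM in 2HS and 2.37, 2.71 and 0.566 RPKM in 2NS. Fes1A, an HSP70 partner, had nuclear libraries that overlapped as recovered but not when rescaled, with 4.60, 1.95 and 6.12 RPKM in 2HS and 2.10, 1.96 and 0.219 RPKM in 2NS. The nuclear libraries of CLPB3, the chloroplast disaggregase, did not overlap, with 19.5, 10.8 and 11.9 RPKM in 2HS and 7.42, 9.21 and 2.12 RPKM in 2NS. Neither did those of AT1G30070, whose product carries an SGS domain, with 8.48, 3.43 and 4.71 RPKM in 2HS and 0, 1.34 and 0.637 RPKM in 2NS.

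**Figure D3:**
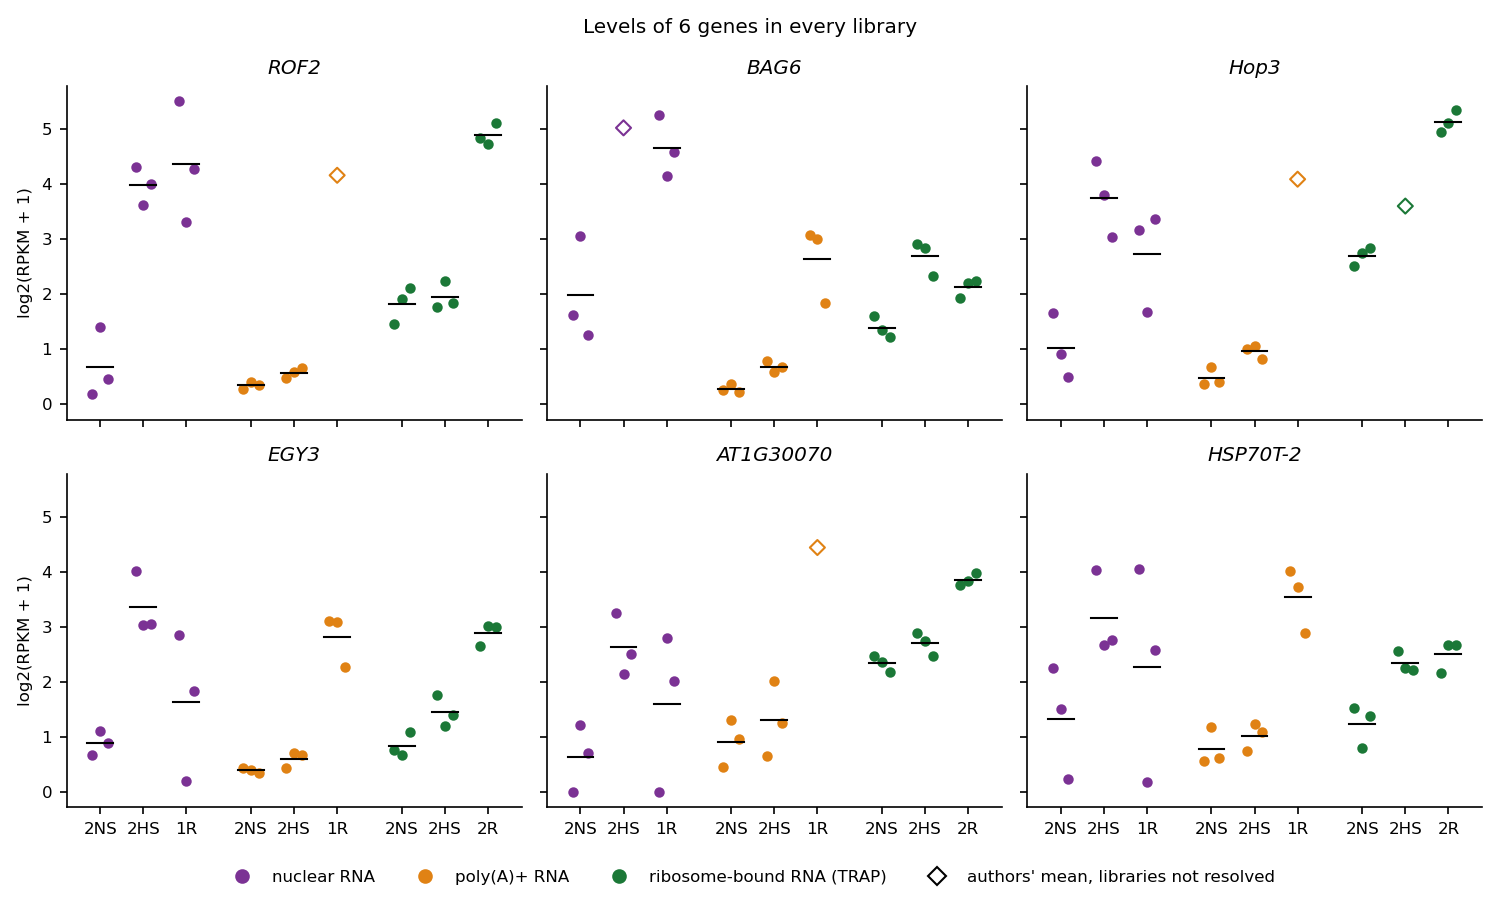
Level of 6 genes as log2(RPKM + 1) in nuclear, poly(A)+ and TRAP RNA, 1 filled point per library with the mean as a bar; an open diamond is the authors' mean where libraries could not be resolved. In nuclear RNA ROF2, Hop3, EGY3, AT1G30070 and HSP70T-2 have every 2HS library above every 2NS library, and in poly(A)+ RNA the 1R values of all 6 genes are the highest.

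A second set of genes belongs to nuclear transport. RAN-1, 1 of the small GTPases that drive transport through nuclear pores, was the most abundant of the 75 genes in nuclei, with 156, 49.4 and 32.6 RPKM in 2HS, against 27.2, 68.2 and 7.51 RPKM in 2NS. Its relative RAN2 had 62.5, 20.7 and 11.7 RPKM in 2HS, against 20.5, 33.2 and 3.70 RPKM in 2NS. RANBP1, which binds RAN, had 14.6, 4.21 and 3.44 RPKM in 2HS, against 5.54, 1.42 and 0.449 RPKM in 2NS. As recovered, these groups overlapped. NTF2B, which carries RAN into the nucleus, averaged 53.2 RPKM in poly(A)+ RNA of 1R, against 20.5 RPKM in 2HS. The nucleoporin gene AT1G59660 had nuclear libraries that did not overlap as recovered, with 22.2, 11.7 and 4.53 RPKM in 2HS, against 1.57, 3.40 and 0.605 RPKM in 2NS. With libraries rescaled to the same protein-coding total, every 2HS library was above every 2NS library also for RAN-1, RAN2, RANBP1 and NTF2B. RAN-1 and RAN2, the cyclophilins ROC3 and AT2G21130, and UBQ7 have close relatives in the genome, so their values are uncertain where reads were shared. These groupings by role were made with the values known.

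Ribosome-bound RNA gives measurements in libraries that the choice did not use. limma was fitted to log2(RPKM + 1) of the recovered libraries over all genes, centred on the median gene, and genes below an adjusted p of 0.05 are called. Of the 75 genes, 52 could be tested between 2HS and 2NS: 18 rose and 6 fell, while 13.1% of all genes tested rose and 12.5% fell. The median change of the 52 genes was 0.40, against 0 over all genes. Against 24 calls with all libraries, 15 were made without the 2HS library of 3.09 M reads, and 14 without the 2NS library of 2.53 M reads.

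BAG6 had 6.50, 6.12 and 4.04 RPKM in TRAP RNA of 2HS, against 2.03, 1.54 and 1.34 RPKM in 2NS, a change of 1.37 ± 0.19 (SE, limma adjusted p = 0.000349). ZF3, a zinc finger protein, had 9.23, 10.96 and 8.03 RPKM in 2HS, against 3.94, 2.91 and 2.07 RPKM in 2NS (1.48 ± 0.21, limma adjusted p = 0.000393). Neither gene's groups overlapped. GH3.3, which conjugates auxin to amino acids, rose by 1.42 ± 0.22, KRP6, an inhibitor of cyclin-dependent kinases, by 1.19 ± 0.19, HSP70T-2 by 1.18 ± 0.22, and the kinase gene MAPKKK14 by 1.01 ± 0.18. The growth regulator ARGOS had 0, 0.306 and 0.499 RPKM in 2HS, against 5.72, 3.51 and 2.08 RPKM in 2NS, and fell by 1.79 on the log2 scale (SE 0.30, limma adjusted p = 0.00123). The auxin-related SAUR gene AT1G29460 fell by 1.05 (SE 0.27). ROF2 showed 2.39, 3.71 and 2.59 RPKM in 2HS, against 1.75, 2.76 and 3.33 RPKM in 2NS, and the groups overlapped.

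After 2 h of reoxygenation, 51 of the 75 genes could be tested against 2HS, and 15 rose and 6 fell, beside 17.9% and 17.4% of all genes tested. The median change was 0.25. ROF2 changed most, with 27.6, 25.5 and 33.7 RPKM in 2R, against the 2HS values above, a change of 2.74 ± 0.20 (SE, limma adjusted p = 1.68e-06). ARGOS rose by 1.63 ± 0.30, the mitochondrial ADP/ATP carrier gene AAC3 by 1.37 ± 0.17, HSA32 by 1.28 ± 0.21 and EGY3 by 1.23 ± 0.20. The antioxidant enzyme gene DHAR2 rose by 0.82 ± 0.24 and RANBP1 by 0.78 ± 0.15. BAG6 had 2.83, 3.60 and 3.74 RPKM in 2R and fell by 0.77 on the log2 scale (SE 0.19), and ZF3 had 3.62, 2.95 and 5.03 RPKM and fell by 1.31 (SE 0.21). MAPKKK14, AT5G35320, KRP6 and NTF2B were the other 4 genes that fell. This comparison and the one before share the 2HS libraries.

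Against 2NS, 16 of 58 testable genes rose in 2R and none fell, beside 2.47% and 2.12% of all genes tested and 2.8% and 2.34% of the 12360 genes, with a median change of 0.56. Since 2R was sampled later than 2NS, with no air control of its own time, reoxygenation and the later time cannot be told apart here. Every 2R library was above every 2NS library in 39 of 63 resolved genes, beside 25.5% of the resolved genes among the 12360. ROF2 led with 2.94 ± 0.20 (SE, limma adjusted p = 4.84e-06). Hop3 had 29.7, 33.3 and 39.6 RPKM in 2R, against 4.72, 5.69 and 6.14 RPKM in 2NS (2.30 ± 0.15, limma adjusted p = 2.53e-05), and the groups stood far apart. AT3G44190, annotated as an oxidoreductase, rose by 2.06 ± 0.37, EGY3 by 1.92 ± 0.20, HSA32 by 1.79 ± 0.21 and AT1G30070 by 1.39 ± 0.15. DHAR2, AT1G59660, GH3.3, HSP70T-2 and Fes1A rose by 1.05 to 1.24. Without centring, 27 genes were called. In this comparison 12 genes, among them ROF1, RAN-1 and RAN2, could not be resolved, and the authors' means stand alone: ROF1 averaged 60.0 RPKM in 2R, 69.4 RPKM in 2HS and 36.9 RPKM in 2NS.

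**Figure D4:**
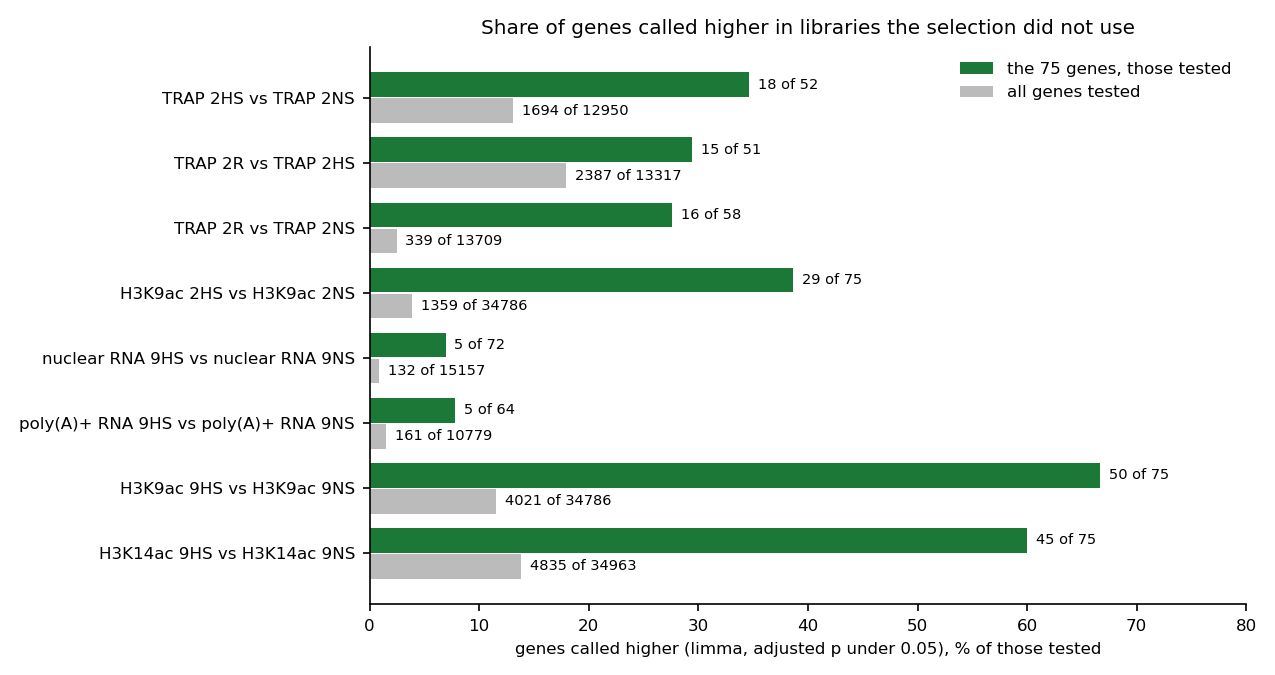
Share of genes called higher by limma in 8 comparisons whose ratios did not choose the 75 genes, as a percent of the genes tested. The 75 genes are in green and all genes in grey. The nuclear and poly(A)+ groups at 9 h entered the choice through the minimum mean. In H3K9ac of 9HS against 9NS the bar reaches 50 of 75 genes, against 4021 of 34786 genes.

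Elongating RNA polymerase, read as Ser2P over the gene, was higher in 2HS than in 2NS over many of the genes in the authors' means. The median over the 75 genes was 26.99 RPKM in 2HS and 12.7 RPKM in 2NS, while over the 12360 genes it was 12.4 RPKM in 2HS and 14.1 RPKM in 2NS. In 44 of the 75 genes the centred ratio was at least 1, as in 6.12% of the 12360 genes. ROF2 averaged 83.9 RPKM in 2HS and 9.05 RPKM in 2NS, and Hop3 64.9 RPKM in 2HS and 8.77 RPKM in 2NS. BAG6 averaged 79.0 RPKM in 2HS and 14.3 RPKM in 2NS, and RAN-1 205.0 RPKM in 2HS and 41.6 RPKM in 2NS. Libraries were resolved for 27 of the 75 genes, with a median limma change of 0.34. Over all 75 the centred ratio of the means had a median of 1.17, though each scale is centred on its own genes. Unresolved genes are mostly those with many reads, so the 27 do not stand for the 75. None of the 27 was called in either direction (0% of all 24758 genes). An unadjusted limma p under 0.05 was found in 4 of the 27 and 839 of all genes. Across the 5445 genes resolved in every Ser2P library, which leave out mostly abundant genes, the libraries agreed poorly. There the 2NS library of middle depth had Spearman correlations of 0.0548 to 0.276 with the other 5. Genes are not independent of one another, and agreement over the unresolved genes was not measured. In simulated data of this spread, 35% of 4-fold changes were called.

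H3K9ac, a mark of active promoters, rose in 2HS over 29 of the 75 genes and fell over none, beside 3.91% and 3.12% of all genes and 5.47% and 6.22% of the 12360 genes. The median change was 0.47, against -0.06 over the 12360 genes. AT2G32190, a small cysteine-rich membrane protein gene, had 50.9 and 44.1 RPKM in 2HS, against 13.9 RPKM in both 2NS libraries (1.69 ± 0.13 SE, limma adjusted p = 0.000683). AT5G12110, annotated as a subunit of translation elongation factor EF1B, had 19.8 and 15.0 RPKM in 2HS, against 4.91 and 4.79 RPKM in 2NS (1.64 ± 0.15). AT4G36010, a thaumatin-like gene, had 45.5 and 30.5 RPKM in 2HS, against 13.4 and 13.8 RPKM in 2NS (1.39 ± 0.21). In these genes the libraries did not overlap. Hop3, with 28.2 and 27.5 RPKM in 2HS against 14.6 and 13.2 RPKM in 2NS, rose by 0.95 ± 0.11, RANBP1 by 0.99 ± 0.13, RAN-1 by 0.98 ± 0.13, ROF1 by 0.83 ± 0.13 and ROF2 by 0.65 ± 0.12. With 2 libraries per group, 12 genes were called without the 2HS library of 3.87 M reads, and 13 or 12 without the 2NS library of 10.57 or 11.26 M reads.

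After 9 h of hypoxia H3K9ac rose over 50 of the 75 genes and fell over 4, beside 11.6% and 10.8% of all genes and 16.7% and 21.6% of the 12360 genes, with a median change of 0.82. AT4G36010 had 83.9 and 84.9 RPKM in 9HS, against 14.6 and 10.0 RPKM in 9NS (2.74 ± 0.21 SE, limma adjusted p = 0.000114). AT5G12110 had 37.1 and 35.1 RPKM in 9HS, against 5.43 and 4.67 RPKM in 9NS (2.65 ± 0.15). ROF2 had 38.7 and 40.3 RPKM in 9HS, against 10.1 and 8.52 RPKM in 9NS (2.01 ± 0.12). Each of these groups stood well apart. AT1G29460, AT2G41730, FBS3 and ROC3 fell, AT1G29460 by 1.74 (SE 0.28). The 2 h and 9 h comparisons share no library, but both use the same estimate of each gene's spread, so their calls are not independent. Of the 29 genes higher at 2 h, 28 were also higher at 9 h, which is 96.6% of the 29 and 56% of the 50; over all genes 1099 were shared, 80.9% of those at 2 h and 27.3% of those at 9 h.

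For H3K14ac, no gene at 2 h was called (0% of 34963), with 13 of the 75 genes and 4330 of all genes at an unadjusted limma p under 0.05, and a median change of 0.09 both in the 75 and in the 12360 genes. At 9 h, 45 of the 75 genes rose and none fell, beside 13.8% and 2.09% of all genes tested; among the 12360 genes 31.1% rose. The median change was 0.72, against 0.26 over the 12360 genes. The cyclophilin gene AT2G21130 had 36.0 and 34.8 RPKM in 9HS, against 9.01 and 8.63 RPKM in 9NS (2.05 ± 0.20 SE, limma adjusted p = 0.00196), and the calcium-binding EF-hand gene AT3G10300 rose by 1.95 ± 0.24. Both marks rose at 9 h over 37 genes, 74% of the 50 in H3K9ac and 82.2% of the 45 in H3K14ac, beside 47.2% and 39.2% over all genes. ROF2 had 16.3 and 17.3 RPKM of H3K14ac in 9HS, against 15.3 and 14.9 RPKM in 9NS. The difference between the 9 h and 2 h changes was called for no gene (0% of 34963). Without the 9HS library of 8.36 M reads 21 genes were called, and 29 without the 9NS library of 6.55 M reads.

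**Figure D5:**
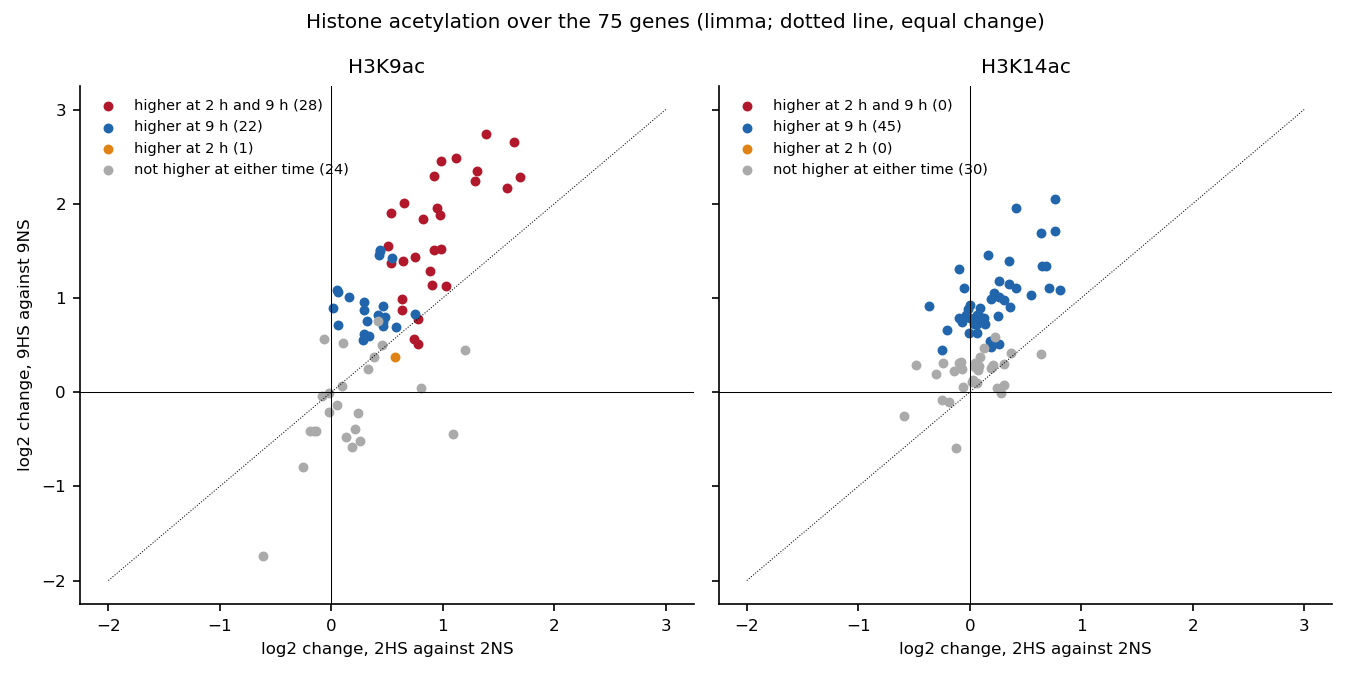
limma log2 change of H3K9ac (left) and H3K14ac (right) over each of the 75 genes at 2 h (x, 2HS against 2NS) and 9 h (y, 9HS against 9NS), coloured by the times at which the gene was called higher; the dotted line marks equal change. In H3K9ac 28 genes are called at both times and 22 at 9 h, and in H3K14ac all 45 called genes are called at 9 h.

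Other chromatin measures gave no calls at 2 h. For H2A.Z, which marks nucleosomes near gene starts, 61 of the 75 genes had a change below 0 in 2HS, with a median of -0.18 against 0.12 over the 12360 genes; no gene was called (0% of 34608), and 24 of the 75 and 2700 of all genes had an unadjusted limma p under 0.05. RAN-1 had 10.1 and 3.83 RPKM of H2A.Z in 2HS, against 18.4 and 20.1 RPKM in 2NS, and its libraries did not overlap. For H3K4me3, 60 of the 75 genes were tested with none called (0% of 27240), and 10 of them and 2026 of all genes had an unadjusted p under 0.05. For H3K27me3, 73 were tested with none called (0% of 34033), and 2 of them and 1095 of all genes had an unadjusted p under 0.05. In simulated H3K27me3 data 0% of 4-fold changes were called, so that a difference was not detectable there. Of simulated 2-fold changes 47% were called in H2A.Z and 11% in H3K4me3, so changes of that size could be missed.

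RNA after 9 h of hypoxia gave few calls. These groups entered the choice through the minimum mean of 1 RPKM, so a high value at 9 h could help a gene to pass. In nuclear RNA 5 of 72 genes rose in 9HS and none fell, beside 0.871% and 1.52% of all genes, with a median change of 0.67. ROF2 had 17.1, 19.3 and 20.3 RPKM in 9HS, against 1.81, 2.25 and 2.68 RPKM in 9NS (2.72 ± 0.76 SE, limma adjusted p = 0.0256). The other 4 were AT5G45350, AT2G21130, Hop3 and AT1G72800, and 0 to 2 of the genes were called when single libraries were left out. In poly(A)+ RNA 5 of 64 genes were called higher and 2 lower, beside 1.49% and 0.742%, but the median of all genes moved by -1.49 between 9HS and 9NS. BAG6 had 2.17, 0.961 and 0.940 RPKM in 9HS, against 0.288, 0.769 and 0.529 RPKM in 9NS (2.09 ± 0.39), and its libraries did not overlap. The other 4 called higher, ROF2, Hop3, EGY3 and AT1G59660, were lower in 9HS before centring, and so the direction holds only relative to the median gene. FLP1 and AT1G29460 were called lower.

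Accessible chromatin in roots was available only as 1 deposited peak list per condition. A peak lay within 1000 bp of the start of 56 of the 75 genes in 2HS (74.7%, against 60.6% of the 12360 genes) and of 26 in 2NS (34.7%, against 33.8%), with 27219 peaks in the 2HS list and 14398 in the 2NS list. The shares were 72% in 9HS and 69.3% in 9NS, against 52.2% and 58.4% of the 12360 genes, and 78.7% in 1R, against 74.3%. The list lengths differ, so these shares show no change between conditions. ROF2 had a peak 69 bp from its start in 2HS (chromosome 5, 19693714 to 19693838, TAIR10 as in the deposited list, with an authors' peak score of 33.9) and one at 60 bp in 9HS (19693717 to 19693854, score 45), and none within 1000 bp in the other 3 lists. The transcription factor HRE2 had a peak near 15 of the 75 genes (20%, against 15.6% of the 12360 genes), among them CAF1a, a deadenylase of mRNA, with a peak 160 bp from its start, ZF3 at 475 bp and LEA14 at -583 bp. HRE2 was assayed in 2HS alone, in a line that overexpresses it.

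The genes of related pathways were taken from 8 lists. A list of 20 heat response regulators and co-chaperones held 4 of the 75 genes, BAG6, ROF1, ROF2 and HSA32, and 13 of the 12360. Of these 13, 12 had a nuclear ratio of at least 1, as 10.5% of the 12360 genes had, and 7 a reoxygenation ratio of at least 0.7, as 4.98% had. The 4 named genes are in both counts because the choice required it, so nothing is read from these counts. HSFB1, a heat stress transcription factor dropped for its description, had a nuclear mean of 10.8 RPKM in 2HS and 4.47 RPKM in 2NS. DREB2A, a regulator of drought and heat genes, exceeded the poly(A)+ limit with a ratio of 2.20. In TRAP RNA 8 of 14 tested genes of the list rose in 2HS against 2NS and none fell, beside 13.1% and 12.5% of all genes. In 2R against 2HS 2 rose and 7 fell of 14, beside 17.9% and 17.4%, and in 2R against 2NS 3 of 16 rose and none fell, beside 2.47% and 2.12%. For H3K9ac 8 of 20 rose and none fell at 2 h, beside 3.91% and 3.12%, and 16 rose and 1 fell at 9 h, beside 11.6% and 10.8%. All 4 named genes are in the H3K9ac counts, which are therefore not separate from those of the 75. A rise in H3K9ac was not particular to this list, as the other lists below show.

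The other 7 lists held none of the 75 genes. All 18 core hypoxia genes had a nuclear ratio of at least 1, but none had a reoxygenation ratio of at least 0.7 and 13 were at -0.7 or below. A nuclear ratio of at least 1 was found in 1 of 12 mRNA export genes, 3 of 14 stress granule and poly(A)-binding genes, 0 of 19 SR splicing factors, 0 of 5 unfolded protein response genes, 4 of 18 antioxidant and mitochondrial retrograde genes and 0 of 11 ribosome biogenesis genes. Reoxygenation ratios of at least 0.7 were found in 1 mRNA export gene and 3 antioxidant genes and in none of the other 4 lists. H3K9ac rose over 15 of 18 core hypoxia genes and fell over none at 2 h, beside 3.91% and 3.12% of all genes. At 9 h it rose over 15 and fell over 1, beside 11.6% and 10.8%. For unfolded protein response genes 3 of 8 rose at 2 h and 5 at 9 h, and none fell. Of 19 antioxidant genes 2 rose and none fell at 2 h, and 11 rose and 3 fell at 9 h.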

How the data were processed

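RNA, ChIP and ATAC libraries of Arabidopsis seedlings (87 samples in 35 groups) were used. The authors deposited 1 table of RPKM in which each of 30 columns is a group mean, per the file headers. Bowtie2, TopHat2, HOMER and TAIR10 are named in the submitters' processing notes; no source used here gives their versions or the read counter. The deposited peak lists carry HOMER's peak score, per the file headers, and come from combined samples; the score of HRE2 was not used. Whole reads per library were recovered from the digits of the deposited means with RefSeq gene lengths (assembly TAIR10.1) in 29 columns, at least 99.94% of low values being solved; 37746 of 37899 identifiers matched RefSeq, and 35351 lengths were accepted. Genes with more than 1 solution, mostly abundant ones, stayed unresolved. In simulated columns 100% of the resolved reads were right. limma 3.58.1 (R 4.3.3) was fitted to log2(RPKM + 1) pooling every group of an assay, for genes averaging 1 RPKM or more over the assay's groups, centred on the median gene, with a variance trend and Benjamini-Hochberg adjustment at 0.05, in 13 comparisons. A change on this scale understates that of low genes. In simulated data 94% to 97% of 4-fold changes were called in TRAP, 85% in H3K9ac and 92% in H3K14ac at 2 h, and 6% in nuclear RNA at 9 h. Of simulated 2-fold changes 64% were called in TRAP. At 2 h the share was 34% in H3K9ac, 60% in H3K14ac, 47% in H2A.Z and 11% in H3K4me3. The 75 genes, the gene lists and the tests were chosen with earlier results of these data known. Genes named were the 12 largest nuclear and 8 largest reoxygenation ratios, up to 4 called genes per direction and comparison, those in a list, those at the thresholds, and others singled out by role after their values were seen.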

Additional observations from a re-analysis of the deposited data

Results flagged for a closer look

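The H3K9ac change at 9 h exceeded that at 2 h, by limma's interaction term, in 9 of the 75 genes and was smaller in none, beside 0.466% of all 34786 genes called higher, and 250 genes called lower. These genes were AT5G35320, ROF2, AT1G30070, Hop3, AT3G44190, NUDT21, AT3G10300, AT5G45350 and ROF1. The difference was centred on its own median gene, so it departs slightly from that of the changes printed. ROF2 changed by 2.01 at 9 h and by 0.65 at 2 h, a difference of 1.34 ± 0.18 (SE, limma adjusted p = 0.0263), and Hop3 changed by 1.95 and 0.95, a difference of 0.99 ± 0.15 (limma adjusted p = 0.037). The same test called none of the 75 genes in H3K14ac (0% of 34963 genes), where the median difference was 0.51. The H3K9ac count ranged from 0 to 7 when single libraries were left out, and it was 0 in 6 of these 8 fits.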

How the results depend on the processing

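Counts of called genes moved as follows. In nuclear RNA at 9 h the 5 calls became 3 with a pseudocount of 0.25 RPKM, 1 with no minimum, 23 with both groups fitted alone, 3 with protein-coding genes alone and 16 with libraries rescaled. In poly(A)+ RNA at 9 h the 7 calls became 12 with no minimum, 46 without centring, 1 with both groups fitted alone and 36 with libraries rescaled. Without centring ROF2 (-0.22), Hop3 (-0.31), EGY3 (-0.18) and AT1G59660 (-0.13) reversed there, as centring adds the median shift. In TRAP RNA of 2R against 2NS 27 genes were called without centring, and in H3K14ac at 2 h 1 with protein-coding genes alone. The number of chosen genes was 122 and 28 with pseudocounts of 0.25 and 4, 19 with a minimum of 5 RPKM, 79 (66 of the 75 among them) with nuclear libraries alone rescaled, and 47 (31 of the 75) with all libraries rescaled, where only 47 of the 75 had resolved values. Leaving out single libraries gave 14 to 24 calls for TRAP 2HS against 2NS, 11 to 24 for 2R against 2NS, 12 to 25 for H3K9ac at 2 h, 0 to 3 for H2A.Z, 0 to 2 for nuclear RNA and 3 to 13 for poly(A)+ RNA at 9 h, 21 to 40 for H3K14ac at 9 h, 0 to 7 for the H3K9ac difference and 70 to 87 chosen genes. Of 118 calls of named genes, 67 held under every alternative run. The cause was not tested. Protein-coding and rescaled settings, and the H3K9ac difference, were chosen after seeing the data. No paired analysis was possible because no replicate number is tied to a recovered library. Few simulated 4-fold changes were called in H3K27me3 (0%), nuclear RNA at 9 h (6%) and Ser2P (35%).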
